A study of Mus musculus with 768 samples.

Results

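The SPARC and SMOC family consists of secreted proteins that share a follistatin-like domain and, in most members, a calcium-binding EC domain. The 8 genes described here, *Sparc*, *Sparcl1*, *Smoc1*, *Smoc2*, *Spock1*, *Spock2*, *Spock3* and *Fstl1*, were taken by symbol from the 24490 mouse genes of the deposited tables, and all 8 were present. They were followed in every well that held at least 10000 reads outside the ERCC spike-ins, which was 727 of 768 wells.

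These proteins are matricellular: they sit in the extracellular matrix and modulate how cells deposit, bind and remodel it, without being its main building blocks. SPARC (osteonectin) binds fibrillar and basement membrane collagens and is made by fibroblasts, pericytes and bone cells, and SPARCL1 (hevin) is its closest relative. SMOC1 and SMOC2 have thyroglobulin-like domains and are known as modulators of BMP and growth factor signaling, the testicans SPOCK1 to SPOCK3 are proteoglycans that act on matrix proteases, and FSTL1 is a more distant glycoprotein that binds BMP family ligands.

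The wells held single cells from 2 mammary tumors taken at the age of 14 weeks from the strain FVB/N-Tg(MMTVPyVT)634Mul/J, in which the MMTV promoter drives polyoma middle T in the mammary epithelium. All cells carried this transgene background and belonged to 1 group, cancer-associated fibroblasts (CAFs) sorted by flow cytometry as EpCAM-, CD45-, CD31- and NG2-, and were sequenced by the full-length Smart-seq2 method. Each tumor filled 1 plate, so that tumor and plate cannot be told apart, and the tumor is the replicate throughout (n = 2). The study sought CAF subtypes with its clusters, and the comparison made here asks in which of them each family member was higher or lower.

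With the 8 genes left out of the clustering, the 727 wells fell into 4 populations that could be named from marker genes. They were 498 vascular CAF (vCAF)-like wells (263 in tumor 1 and 235 in tumor 2), 143 matrix CAF (mCAF)-like wells (76 and 67), 41 cycling CAF (cCAF)-like wells (23 and 18) and 39 developmental CAF (dCAF)-like wells (10 and 29). The other 6 wells, led by hemoglobin genes and with few reads, stayed unnamed. The depth of a well lay between 10281 and 838772 reads in tumor 1, with a median of 219264, and between 10476 and 1190516 reads in tumor 2, with a median of 198180. Of the genes used for sorting, *Ptprc* (CD45) was read in 1 well and *Pecam1* (CD31) in 2 wells, *Epcam* in 7.70% of wells, and *Cspg4*, which encodes NG2, in 82.7%. Within the dCAF-like cluster, 10 wells (1 in tumor 1 and 9 in tumor 2) separated at a smaller clustering distance and lacked reads of the dCAF markers *Sox10* and *Mia*. The dCAF-like levels of *Sparc*, *Sparcl1*, *Fstl1* and *Smoc1* and the tests of *Smoc1*, *Smoc2* and *Fstl1* are therefore also given without them. Other tests of the dCAF-like wells, the partner lists included, are given with these 10 wells only. Markers of other cells were low in most populations. Summed over each list, immune genes reached 0.216 to 12.6 CPM (summed reads scaled to the library total, not to gene length) and adipocyte genes at most 0.0463 CPM. The 8 endothelial genes summed to 114 and 200.1 CPM in vCAF-like and 127 and 184 CPM in cCAF-like wells. In mCAF-like and dCAF-like wells they summed to 1.57 to 34.2 CPM. *Cdh5* and *Pecam1* were at or near 0, but 4 of the 8 genes in tumor 1 and 5 in tumor 2 had reads in vCAF-like wells. Smooth muscle genes, which pericyte-type cells also use, summed to 1278 to 1586 CPM in vCAF-like, 1120 to 1404 CPM in cCAF-like and 415 to 618 CPM in the other populations.

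The members lie on 8 different chromosomes. In GRCm38.p6 coordinates, which is the assembly of the mm10 build, *Sparc* (gene ID 20692) is at chr11:55394159-55420080, *Sparcl1* (13602) at chr5:104079108-104114088, *Smoc1* (64075) at chr12:81026808-81186414 and *Smoc2* (64074) at chr17:14279490-14404790. *Spock1* (20745) spans chr13:57421195-57908332, *Spock2* (94214) chr10:60106257-60135198, *Spock3* (72902) chr8:62951000-63357101 and *Fstl1* (14314) chr16:37777055-37836516. All values below are sums over the exons of each gene model, so transcripts of 1 gene were not separated.

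Promoter sequences are printed for *Sparc*, *Fstl1* and *Spock1*, which were higher in mCAF-like wells in both tumors and differ widely in how many wells express them. They run from 250 bases before to 50 bases after the start of the gene, 5′ to 3′ on the strand of the gene, as RefSeq gives them for GRCm38.p6. *Sparc* is at chr11:55420031-55420330 on the minus strand, *Fstl1* at chr16:37776805-37777104 on the plus strand and *Spock1* at chr13:57908283-57908582 on the minus strand. Capitals mark matches, on either strand, to the GC box core GGGCGG, to the TATA box TATAAA or to the AP-1 type element TGANTCA.
Sparc: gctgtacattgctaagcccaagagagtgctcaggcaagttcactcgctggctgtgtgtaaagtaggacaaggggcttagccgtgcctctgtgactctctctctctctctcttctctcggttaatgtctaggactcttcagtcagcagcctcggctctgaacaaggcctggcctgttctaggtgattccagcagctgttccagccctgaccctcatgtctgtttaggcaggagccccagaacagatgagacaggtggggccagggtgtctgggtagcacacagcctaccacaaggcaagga
Fstl1: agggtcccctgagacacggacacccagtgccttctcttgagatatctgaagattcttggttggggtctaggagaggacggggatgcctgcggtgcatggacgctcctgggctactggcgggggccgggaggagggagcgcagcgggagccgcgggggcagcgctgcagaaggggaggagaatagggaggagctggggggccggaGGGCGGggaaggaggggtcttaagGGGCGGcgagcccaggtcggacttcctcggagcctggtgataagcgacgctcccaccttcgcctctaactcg
Spock1: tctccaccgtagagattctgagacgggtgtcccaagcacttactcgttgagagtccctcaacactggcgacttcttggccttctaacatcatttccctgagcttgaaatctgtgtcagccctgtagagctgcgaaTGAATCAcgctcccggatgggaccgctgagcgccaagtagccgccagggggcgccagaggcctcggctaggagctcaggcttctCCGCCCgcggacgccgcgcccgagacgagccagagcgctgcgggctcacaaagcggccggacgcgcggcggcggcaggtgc
The *Sparc* window held none of the 3 motifs, *Fstl1* held GGGCGG 2 times, and *Spock1* held it 1 time on the opposite strand (CCGCCC) together with 1 TGANTCA match. Over 32851 promoters of the same length, GGGCGG was present in 35.7%, TATAAA in 13.6% and TGANTCA in 7.81%. The G and C content of the windows was 55.3% for *Sparc*, 66.7% for *Fstl1* and 64% for *Spock1*. These matches describe the letters of the windows and are not evidence of binding.

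The family held some of the most abundant genes in these cells and some that were hardly detected. By mean RPKM (reads scaled to gene length and to the depth of the well, a level per length) over the 727 wells, *Sparc* ranked 4 of 24490 genes at 3617, *Sparcl1* ranked 12 at 1766 and *Fstl1* ranked 66 at 524. *Smoc2* ranked 357 at 167, *Smoc1* 7056 at 6.99, *Spock1* 11107 at 1.45, *Spock3* 11819 at 0.937 and *Spock2* 14012 at 0.183. *Sparc* was read in 100% of wells and was one of 11 genes with that property, and it alone took 1.14% of all endogenous reads. *Fstl1* was read in 99.0% of wells, *Sparcl1* in 97.8%, *Smoc2* in 44.0%, *Smoc1* in 6.46%, *Spock1* in 3.85%, *Spock3* in 2.2% and *Spock2* in 1.38%. Smart-seq2 has no molecular identifiers, so limits and intervals for such shares cover counting error only.

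**Figure D1:**
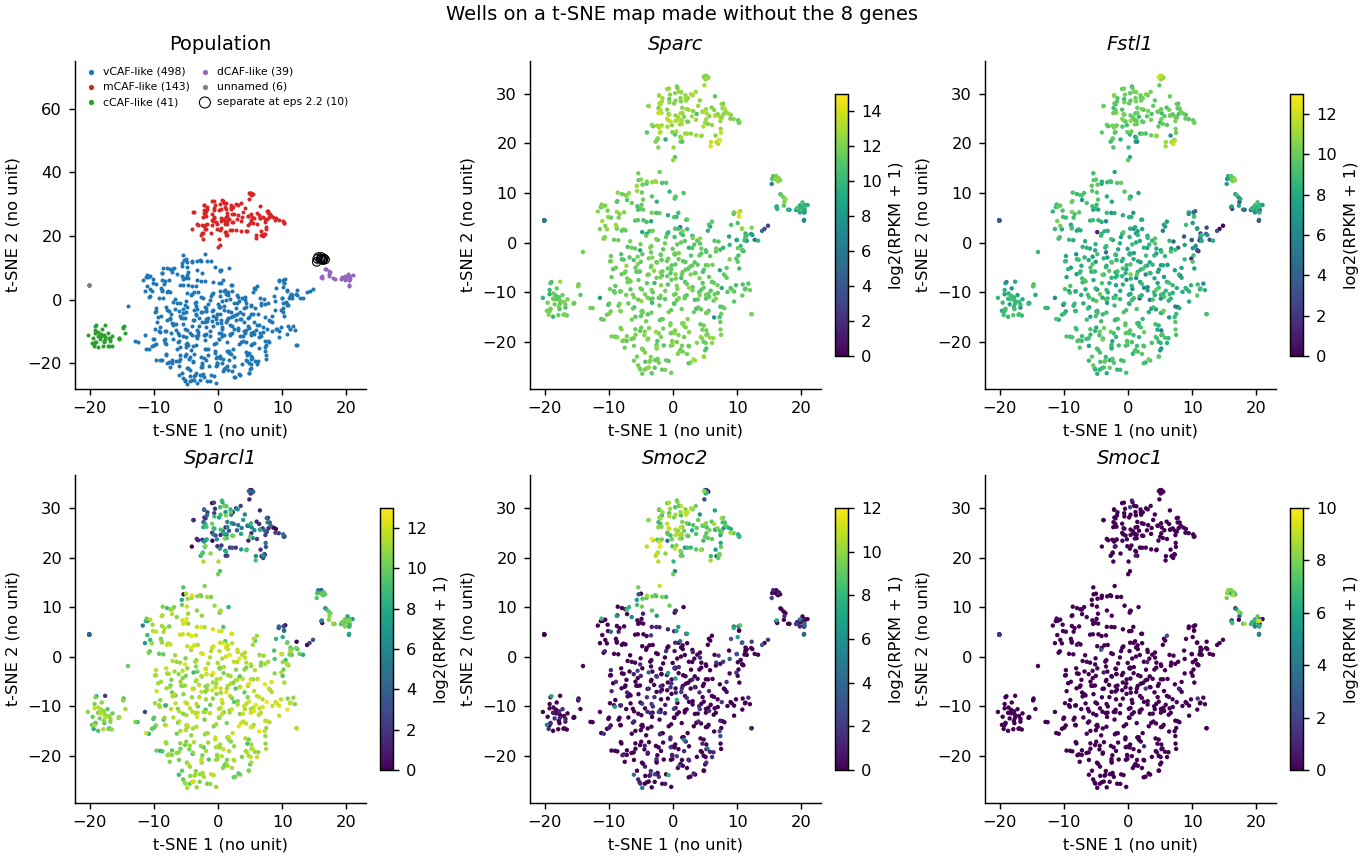
Position of the 727 wells on a t-SNE map (axes have no unit) computed without the 8 genes, colored by population in the first panel and by log2(RPKM + 1) of 5 members in the others. *Sparc* and *Fstl1* are high over almost the whole map, *Sparcl1* is low in the mCAF-like wells, *Smoc2* is high there, and *Smoc1* is high in the dCAF-like wells; circles mark the 10 wells that separate at a smaller distance.

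*Sparc* was expressed in every well of every population and was highest in mCAF-like wells. Its median level in mCAF-like wells was 5745 RPKM in tumor 1 (range 662 to 13439) and 6370 RPKM in tumor 2 (1674 to 21512). In vCAF-like wells the medians were 3156 and 2584 RPKM, in cCAF-like wells 3142 and 2856 RPKM, and in dCAF-like wells 1332 and 845 RPKM. The ranges over wells overlapped between all populations, whereas the means of the tumors separated mCAF-like wells from the rest. As a mean of log2(RPKM + 1) per tumor, the level was 12.46 ± 0.11 (SD, n = 2) in mCAF-like, 11.39 ± 0.16 in cCAF-like, 11.33 ± 0.18 in vCAF-like and 10.11 ± 0.75 in dCAF-like wells. The order was the same in both tumors, but cCAF-like and vCAF-like wells overlapped between tumors and do not differ beyond their spread. The 6 unnamed wells had lower levels, at 5.61 and 4.88.

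For tests, reads were summed per tumor over the wells of a population and over all other wells, which gave 4 libraries per comparison. The 4 comparisons share their wells, and the populations were defined in the same cells, so that p-values measure how far the 2 tumors agree and not whether the populations exist. The summed *Sparc* level of mCAF-like wells was 17153 CPM in tumor 1 and 18119 CPM in tumor 2, against 10357 and 8187 CPM in the other wells, a ratio of 1.66 and 2.21. The difference was 1.26 on the log2 scale (SE 0.18) and passed edgeR's quasi-likelihood test (Benjamini-Hochberg adjusted p = 0.0091). In vCAF-like wells *Sparc* was at 10704 and 8684 CPM against 14607 and 13473 CPM elsewhere, a log2 difference of -0.63 (SE 0.19) that did not pass the same test (adjusted p = 0.105 by edgeR) but did with the tumor as a block (adjusted p = 0.0226). The differences of cCAF-like wells (-0.42, adjusted p = 0.186 by edgeR) and dCAF-like wells (-1.18, adjusted p = 0.141) did not pass. *Sparc* levels also went with depth, with r = 0.41 in tumor 1 and 0.38 in tumor 2 between log2(RPKM + 1) and log2 reads over the 727 wells. After each well was thinned to 50000 reads, the *Sparc* difference was 1.37 in mCAF-like wells (edgeR adjusted p = 0.0039) and -0.74 in vCAF-like wells, where it then passed (adjusted p = 0.0386).

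*Fstl1*, the secreted glycoprotein that binds BMP ligands, followed *Sparc* across the populations at a lower level. Median levels were 990 and 882 RPKM in mCAF-like wells of tumor 1 and tumor 2, 386 and 357 RPKM in vCAF-like, 409 and 399 RPKM in cCAF-like, and 134 and 225 RPKM in dCAF-like wells. Every mCAF-like well had reads of *Fstl1* (83.1 to 4196 RPKM), and 4 vCAF-like wells and 1 dCAF-like well had none. The mean log2(RPKM + 1) was 9.81 in both tumors for mCAF-like wells, 8.40 ± 0.19 (SD, n = 2) for cCAF-like, 8.18 ± 0.22 for vCAF-like and 6.69 ± 0.72 for dCAF-like wells, and again cCAF-like and vCAF-like wells overlapped. Summed levels of mCAF-like wells, 3848 and 3933 CPM, were 2.14 and 2.31 times those of the other wells, and the log2 difference of 1.48 (SE 0.14) passed the test (edgeR adjusted p = 0.0027). In vCAF-like wells *Fstl1* was lower, at 1884 and 1725 CPM against 3115 and 3037 CPM, with a log2 difference of -0.86 (SE 0.16, edgeR adjusted p = 0.0219). Against the mean of the other 3 populations, each as a library of its own, this difference was -0.17 and did not pass (adjusted p = 0.934 by edgeR).

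Across single wells, the gene most like *Fstl1* among 11284 genes read in at least 5% of wells was *Sparc*, with a mean r over the tumors of 0.64 for log2(RPKM + 1), followed by *Bgn* (biglycan, 0.61) and *Col5a2* (0.60). Within vCAF-like wells the r of *Sparc* and *Fstl1* was 0.58 in tumor 1 and 0.48 in tumor 2, and within mCAF-like wells it was 0.46 and 0.34. The wells of a tumor share a plate and differ in depth, and *Fstl1* had an r of 0.41 and 0.50 with log2 reads. The genes most like *Sparc* were *Bgn* (0.71) and the collagens *Col3a1* (0.69) and *Col1a2* (0.68), and within mCAF-like wells they were *Col1a2* (0.73), *Col1a1* (0.65) and *Col3a1* (0.56).

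**Figure D2:**
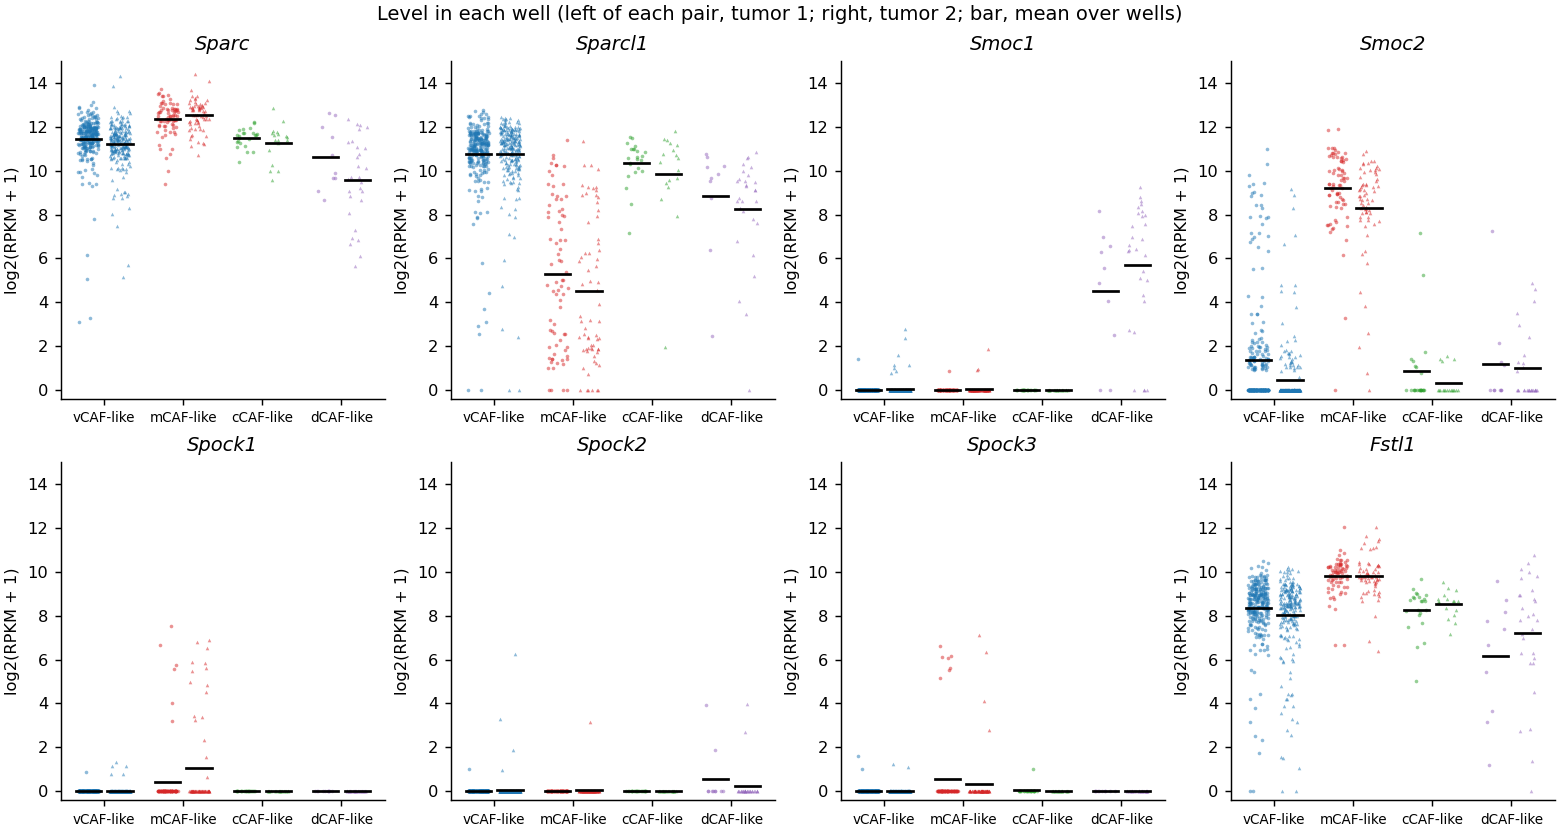
Level of each of the 8 genes in each well, as log2(RPKM + 1), by population, with tumor 1 on the left and tumor 2 on the right of each pair and a bar at the mean over wells. *Sparc* is above 0 in every well, *Sparcl1* spreads from 0 to 11.4 in the mCAF-like wells, and the 3 testicans are at 0 in most wells.

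*Sparcl1*, the closest relative of *Sparc*, was lowest in the mCAF-like wells, where *Sparc* and *Fstl1* were highest. Median levels were 2131 and 2311 RPKM in vCAF-like wells of tumor 1 and tumor 2, 1533 and 1454 RPKM in cCAF-like, 877 and 558 RPKM in dCAF-like, and 30.3 and 8.29 RPKM in mCAF-like wells. The mCAF-like wells were heterogeneous: they ranged from 0 to 2698 RPKM in tumor 1 and from 0 to 2582 RPKM in tumor 2, and 30 of 76 and 19 of 67 wells reached 100 RPKM. The mean log2(RPKM + 1) had the order vCAF-like (10.76 ± 0.02, SD, n = 2), cCAF-like (10.10 ± 0.37), dCAF-like (8.56 ± 0.41) and mCAF-like wells (4.89 ± 0.55), and no neighbors in that order overlapped between tumors. A read of *Sparcl1* was found in 94.7% and 91.0% of mCAF-like wells, and in 73.0% and 70.1% after each well was thinned to 50000 reads.

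In summed libraries *Sparcl1* was at 8617 and 8582 CPM in vCAF-like wells against 2066 and 1725 CPM in the others, a log2 difference of 2.09 (SE 0.18, edgeR adjusted p = 0.0024). In mCAF-like wells it was at 1002 and 676 CPM against 8058 and 7622 CPM, a difference of -2.89 (SE 0.24, edgeR adjusted p = 0.0019). Neither cCAF-like (-0.25, adjusted p = 0.320 by edgeR) nor dCAF-like wells (-1.34, adjusted p = 0.0898) passed the test. Against the mean of the other 3 populations, *Sparcl1* was instead higher in cCAF-like wells (0.92, edgeR adjusted p = 0.0420). ERCC scaling gave 0.26, which did not pass (edgeR adjusted p = 0.172) and was -0.20 relative to the median of all genes. The genes most like *Sparcl1* over the 727 wells were *Rgs5* (r = 0.75), *Abcc9* (0.73) and *Higd1b* (0.70), which are known from pericytes and were among the vCAF markers. Inside the vCAF-like wells they were the receptor gene *Pdgfrb* (0.68), *Serpine2* (0.68) and *Col4a2* (0.66), chosen by the same rule applied within the population. *Sparcl1* also had an r of 0.44 in tumor 1 and 0.33 in tumor 2 with log2 reads in these wells.

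*Smoc2* was high in mCAF-like wells and was detected at lower levels in part of the wells elsewhere. In mCAF-like wells it was read in 98.7% of wells in tumor 1 and 98.5% in tumor 2, with medians of 677 and 458 RPKM and maxima of 3772 and 1923 RPKM. In vCAF-like wells the median was 0 in both tumors, but 41.4% and 18.3% of wells had a read, 33 and 10 wells reached 10 RPKM and the highest were at 2056 and 567 RPKM. After thinning to 50000 reads the shares in vCAF-like wells were 18.5% and 7.37%. With the members allowed among the clustering genes, 65 of the 498 vCAF-like wells joined unnamed clusters, so membership of this population depends on the clustering. Tumor 1 was higher than tumor 2 in every population, and its mean log2(RPKM + 1) was 9.21 against 8.32 in mCAF-like, 1.39 against 0.47 in vCAF-like, 0.86 against 0.32 in cCAF-like and 1.18 against 0.99 in dCAF-like wells. The last 3 populations overlapped between neighbors in the order of levels, and mCAF-like wells stood above them.

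The summed level of *Smoc2* in mCAF-like wells was 2767 CPM against 133 CPM elsewhere in tumor 1 and 1737 against 11.4 CPM in tumor 2, which are ratios of 20.8 and 152. The log2 difference was 5.28 (SE 1.20, edgeR adjusted p = 0.0398), and its size rested on the tumor, at 4.70 with tumor 1 alone and 7.60 with tumor 2 alone. The opposite difference in vCAF-like wells, -4.29 (SE 1.15), did not pass (adjusted p = 0.0704 by edgeR) and passed with the tumor as a block (-5.12, adjusted p = 0.0133). The same held for cCAF-like wells (-6.46, edgeR adjusted p = 0.0571, with the block 0.0061) and dCAF-like wells (-5.01, adjusted p = 0.0637, with the block 0.0329). With the members, *Smoc2* included, among the clustering genes, the difference in vCAF-like wells was -6.83 and passed (edgeR adjusted p = 0.0057). Because *Smoc2* then helped to define the clusters it was compared between, this pass cannot count as separate evidence. In the vCAF-like wells, *Smoc2* had an r of 0.57 in tumor 1 and 0.37 in tumor 2 with the mean level of the mCAF markers. The genes most like it over all wells were *Svep1* (0.83), *Mfap5* (0.82) and *Itgbl1* (0.80), of which *Svep1* and *Mfap5* encode matrix proteins and *Mfap5* was an mCAF marker. Within the mCAF-like wells they were *Colec12* (0.58), *Olfml3* (0.54) and *F2r* (0.52).

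*Smoc1*, the paralog of *Smoc2*, reached 10 RPKM in dCAF-like wells and in no other of the 727 wells. It was read in 8 of 10 dCAF-like wells in tumor 1 and 25 of 29 in tumor 2, with medians of 37.4 and 85.4 RPKM and maxima of 290.5 and 620.6 RPKM. Elsewhere it was read in 9 of 498 vCAF-like wells, at up to 5.88 RPKM, in 4 of 143 mCAF-like wells, at up to 2.66 RPKM, and in 0 of 41 cCAF-like wells, which allows a share of up to 7.32%. All 30 wells with at least 10 RPKM of *Smoc1* lay in the dCAF-like cluster (7 in tumor 1 and 23 in tumor 2), and 10 of them were the wells that separate within it. The name of these 10 wells depends on the clustering: with the members among the clustering genes they formed a cluster of their own that the marker lists named mCAF-like, and their summed dCAF markers were at 1579 and 1575 CPM, against 19254 and 14412 CPM in the other dCAF-like wells. The mean log2(RPKM + 1) was 5.11 ± 0.86 (SD, n = 2) in dCAF-like wells and at most 0.06 in any tumor of the other 3 named populations.

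In reads, dCAF-like wells held 671 of 673 *Smoc1* reads in tumor 1 and 3943 of 3959 in tumor 2, or 264 and 698 CPM. The log2 difference from the other wells was 11.74 (SE 1.35, edgeR adjusted p = 0.0340). *Smoc1* reached the mean of 1 RPKM required for a test only through dCAF-like wells (mean 130 RPKM, against 0.04 in vCAF-like wells). *Smoc1* was lower in vCAF-like (-9.32, SE 1.39, edgeR adjusted p = 0.0105) and mCAF-like wells (-8.21, SE 1.32, edgeR adjusted p = 0.0135), both of which were compared with libraries that held the dCAF-like wells. Against the mean of the other 3 populations these values were -2.37 (SE 119) and -2.48, and neither passed. That mean of log levels includes the cCAF-like libraries, which held 0 *Smoc1* reads in both tumors. It therefore cannot decide whether *Smoc1* was lower in vCAF-like or mCAF-like wells. Against the other wells, cCAF-like wells were at least 18-fold lower in tumor 1 and 90.0-fold lower in tumor 2, taking 3 counts per library as the floor (edgeR adjusted p = 0.0814, with the tumor as a block 0.0453). Those other wells also held the dCAF-like wells. The cCAF-like floor was 0.490 and 0.648 CPM, above the vCAF-like level of 0.019 and 0.264 CPM. Therefore cCAF-like wells cannot be told apart from vCAF-like wells here. All of the 10 wells that separate within the dCAF-like cluster reached 10 RPKM of *Smoc1*, where log2(RPKM + 1) averaged 5.55 in tumor 1 and 7.46 in tumor 2, and the dCAF-like wells without them were at 4.39 and 4.94. With these wells left out of every library *Smoc1* passed the test (11.54, edgeR adjusted p = 0.0203). Counted among the other wells instead, they left a difference of 4.99 that did not pass (adjusted p = 0.219 by edgeR).

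Epithelial and glial markers were highest in the dCAF-like wells among the named populations. The 9 epithelial genes summed to 1704 CPM in tumor 1 and 234 CPM in tumor 2 there, against 4.24 to 51.3 CPM in the other named populations. A list of 6 glial genes summed to 910 and 272 CPM, against 6.34 to 67.2 CPM, with *Pmp2* at 0. In the 10 wells the epithelial genes were at 80.7 and 44.3 CPM and the glial genes at 0 and 8.34 CPM. Their *Smoc1* level was 172 CPM in tumor 1 and 861 CPM in tumor 2, against 272 and 615 CPM in the other dCAF-like wells. The genes most like *Smoc1* were *Chad* (chondroadherin, r = 0.72), *Tfap2b* (0.72) and *Mia* (0.67), the last of which was a dCAF marker.

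Over all wells, few reached high levels of both *Smoc1* and *Smoc2*. At a minimum of 10 RPKM, 3 wells had both, 27 had *Smoc1* alone and 184 had *Smoc2* alone, and the 3 wells were dCAF-like. Of the 39 dCAF-like wells, 30 reached 10 RPKM of *Smoc1*, 5 reached it for *Smoc2* and 3 for both. *Sparcl1* and *Smoc2* had an r of -0.58 in tumor 1 and -0.60 in tumor 2 over all wells, yet within mCAF-like wells the r was 0.26 and 0.36 and within vCAF-like wells -0.14 and -0.27. At 10 RPKM, 79 of 143 mCAF-like wells held both *Sparcl1* and *Smoc2*, and 58 held *Smoc2* alone.

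**Figure D3:**
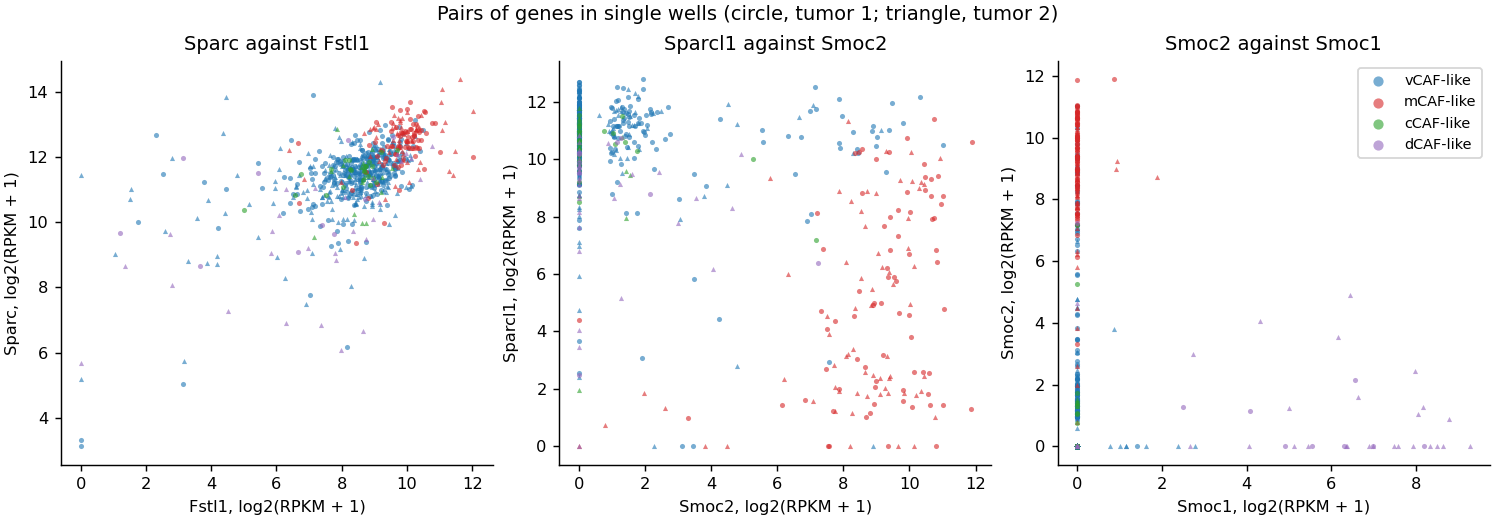
Levels of 3 pairs of genes in single wells, each axis as log2(RPKM + 1), with circles for tumor 1 and triangles for tumor 2. *Sparc* and *Fstl1* vary together (r = 0.63 and 0.65), mCAF-like wells spread over the whole range of *Sparcl1* at high *Smoc2*, and 3 wells have at least 10 RPKM of both *Smoc1* and *Smoc2*.

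The testicans were rare, and *Spock1* and *Spock3* were concentrated in mCAF-like wells. *Spock1* was read in 6 of 76 mCAF-like wells in tumor 1 (7.89%) and 16 of 67 in tumor 2 (23.9%), with maxima of 183 and 116 RPKM. Outside them it was read in 6 vCAF-like wells at up to 1.55 RPKM and in 0 of 41 cCAF-like and 0 of 39 dCAF-like wells, which allows shares of up to 7.32% and 7.69%. All 15 wells with at least 10 RPKM of *Spock1* were mCAF-like. All 15 had at least 10 RPKM of *Smoc2*, as did 137 of all 143 mCAF-like wells. In summed libraries 590 of 591 *Spock1* reads in tumor 1 and 755 of 760 in tumor 2 came from mCAF-like wells, with a log2 difference of 9.69 (SE 0.74, edgeR adjusted p = 0.0015). *Spock1* reached the mean of 1 RPKM required for a test only through mCAF-like wells (mean 7.32 RPKM, against 0.01 in vCAF-like wells). *Spock1* was lower in vCAF-like wells (-8.59, SE 0.77, edgeR adjusted p = 0.0025). Against the mean of the other 3 populations it was at -0.85 (SE 2.43, edgeR adjusted p = 0.986). That mean of log levels cannot decide, because the cCAF-like and dCAF-like libraries held 0 *Spock1* reads in both tumors. The cCAF-like wells were at least 15.8-fold and 17.3-fold lower than the other wells in tumor 1 and tumor 2, and the dCAF-like wells at least 6.27-fold and 21.4-fold (edgeR adjusted p = 0.0591 and 0.0770). In both cases the other wells held the mCAF-like wells. The vCAF-like level of 0.019 and 0.110 CPM lay under the floors of both populations, so neither can be told apart from vCAF-like wells.

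*Spock3* was read in 7 of 76 (9.21%) and 4 of 67 (5.97%) mCAF-like wells, and all 10 wells with at least 10 RPKM were mCAF-like. Of these 10 wells, 1 also reached 10 RPKM of *Spock1*, beside 15 of all 143 mCAF-like wells. Elsewhere *Spock3* was read in 4 vCAF-like wells and 1 cCAF-like well, at up to 2.09 RPKM, and in 0 of 39 dCAF-like wells, which allows a share of up to 7.69%. *Spock2* was read in 10 wells in all, 5 vCAF-like, 1 mCAF-like and 4 dCAF-like, and its highest level, 74.7 RPKM, was in 1 vCAF-like well of tumor 2. Neither gene reached the mean of 1 RPKM that the test required, so neither was tested. At these levels a population that lacks reads cannot be told apart from one with a low level.

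**Figure D4:**
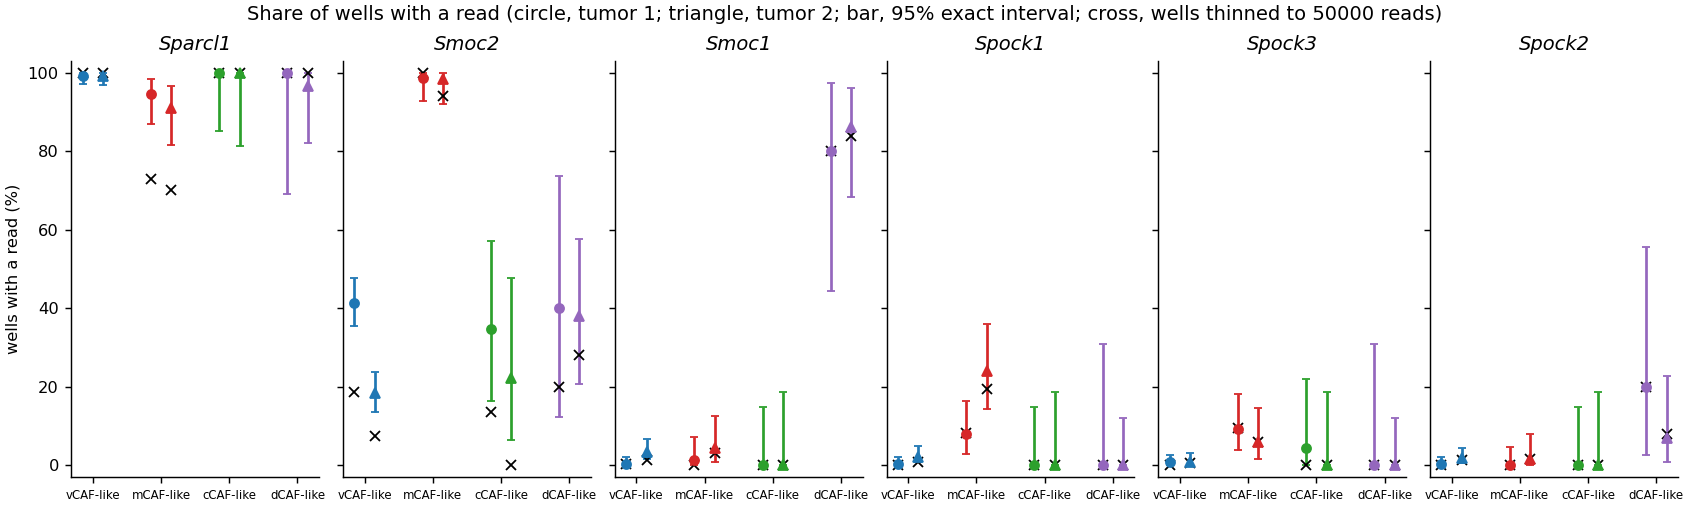
Share of wells with at least 1 read of 6 members, in percent, by population, with circles for tumor 1, triangles for tumor 2, bars for exact 95% binomial intervals and crosses for the share after thinning to 50000 reads. The mCAF-like shares of *Sparcl1* fall to 73.0% and 70.1% on thinning, and the dCAF-like intervals of tumor 1 are wide because they rest on 10 wells.

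Of the 6 members tested, 1 was higher and 3 were lower in vCAF-like wells by edgeR (adjusted p of at most 0.05), where 4.58% and 8.2% of all 11715 genes tested were called higher and lower. In mCAF-like wells 4 were higher and 2 lower, beside 9.21% and 6.91% of all genes. No member was called in cCAF-like wells, beside 2.31% higher and 1.8% lower, and 1 was higher in dCAF-like wells, beside 1.72% higher and 2.06% lower. These counts include *Spock1* and *Smoc1*, which passed the filter on mean RPKM only through the mCAF-like and the dCAF-like wells, respectively. With the tumor as a block, 6 of the 6 were called in vCAF-like wells (15% of all genes), 6 in mCAF-like (20.1%), 2 in cCAF-like (3.61%) and 2 in dCAF-like wells (1.74%). The mCAF-like and vCAF-like calls of *Sparcl1*, *Fstl1* and *Spock1* kept their direction when ERCC spike-ins set the library size, as did *Sparc* and *Smoc2* in mCAF-like wells.

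Scaling mattered for the background. The median share of ERCC reads was 15.0% and 12.8% in vCAF-like wells and 5.90% and 5.98% in mCAF-like wells, and ERCC scaling moved the median log2 difference of all genes to -0.81 in vCAF-like, 0.69 in mCAF-like, 0.46 in cCAF-like and 0.37 in dCAF-like wells. The share of calls that were higher went from 35.8% to 5.03% in vCAF-like, from 57.2% to 86.9% in mCAF-like, from 56.2% to 75.6% in cCAF-like and from 45.5% to 63.7% in dCAF-like wells. Relative to those medians, *Sparc* differed by 1.31 in mCAF-like and -0.66 in vCAF-like wells and *Fstl1* by 1.53 and -0.89. In cCAF-like wells *Sparc* and *Sparcl1* turned sign under ERCC scaling, at 0.10 and 0.26, and stood at -0.36 and -0.20 relative to the median of all genes.

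**Figure D5:**
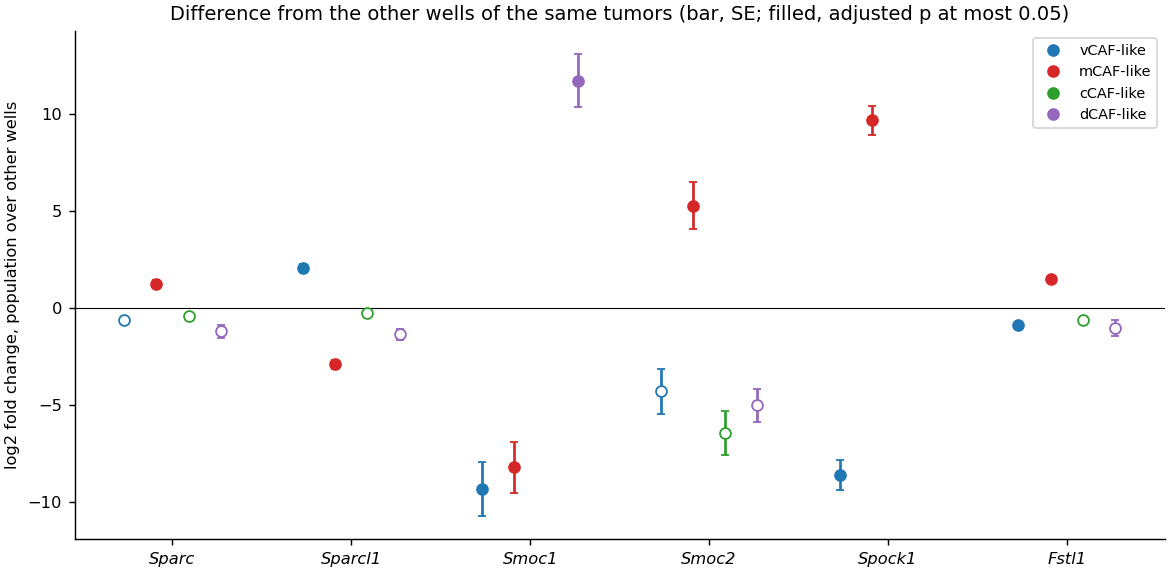
Log2 fold change of each tested member in each population against the other wells of the same 2 tumors, with bars for the SE and filled points for an adjusted p of at most 0.05 by edgeR. *Sparc*, *Fstl1*, *Smoc2* and *Spock1* are higher in mCAF-like wells, *Sparcl1* in vCAF-like and *Smoc1* in dCAF-like wells; genes without a read in a population are not drawn for it.

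The partners of the family were followed in 5 lists, with calls by edgeR at an adjusted p of at most 0.05 in the same 4 comparisons and values given as log2 differences. Of 9 collagens that SPARC binds, 8 were tested. In vCAF-like wells 2 were higher and 6 lower (median log2 difference -1.0, beside 0.03 for all genes), with *Col4a1*, a basement membrane collagen, higher by 1.34 and the fibrillar *Col1a1* and *Col1a2* at -2.29 and -1.93. In mCAF-like wells 6 were higher and 2 lower (median 1.63, beside -0.05), with *Col1a1* at 3.08, *Col1a2* at 2.74 and *Col3a1* at 2.07. *Col1a2* was the 1 collagen called in cCAF-like (-1.01) and in dCAF-like wells (-3.14), both lower, where the medians of the list were -0.67 and -2.22 beside -0.05 and -0.07 for all genes. In this list 4 of 9 genes, *Col1a1*, *Col1a2*, *Col3a1* and *Col8a1*, were among the clustering genes. With the tumor as a block, *Col1a1* (edgeR adjusted p = 0.0070) and *Col3a1* (0.0180) also passed as lower in cCAF-like wells. Of the 4 tested collagens that were not clustering genes, 2 were higher and 2 lower in both vCAF-like and mCAF-like wells.

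Of 9 further binding partners and receptors of SPARC, 8 were tested. The growth factor gene *Pdgfa* (1.78) and the adhesive protein gene *Vtn* (3.39) were higher and the adhesion receptor gene *Vcam1* (-4.17) lower in vCAF-like wells (median 0.30, beside 0.03 for all genes). In mCAF-like wells *Vtn* (-8.15), *Pdgfb* (-7.50, read in only 1.40% of these wells) and *Pdgfa* (-4.15) were lower and 1 gene was higher (median 0.01, beside -0.05). None was called in cCAF-like wells (median 0.13, beside -0.05), and *Vtn* was lower in dCAF-like wells (-8.51, median of the list -1.37, beside -0.07). The block added *Itgb1* as higher in vCAF-like (edgeR adjusted p = 0.0340) and lower in mCAF-like wells (0.0390), and *Vegfa* (0.0089) and *Thbs1* (0.0474) as higher in mCAF-like wells.

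Among 17 genes of the BMP branch and receptors of FSTL1, 14 were tested. *Bmp7* (-11.43, read in only 0.201% of vCAF-like wells) and the BMP target *Id2* (-3.11) were lower in vCAF-like wells (median of the list -0.03, beside 0.03). The ligand gene *Bmp2* was lower in mCAF-like wells (-1.96, median 0.28, beside -0.05). With 2 of 14 genes called in vCAF-like and 1 of 14 in mCAF-like wells, the list was near or below the shares of all genes. These calls therefore concern single genes and not the BMP branch. *Id2* was lower in cCAF-like (-3.33, median -0.26, beside -0.05) and higher in dCAF-like wells (3.02, median -0.14, beside -0.07). With the tumor as a block, *Id2* no longer passed in cCAF-like wells (edgeR adjusted p = 0.0594), *Id3* passed as higher in vCAF-like (0.0129) and lower in mCAF-like wells (0.0250), and *Bmp7* (0.0057) and *Id2* (0.0275) passed as higher in mCAF-like wells.

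The proteases and inhibitors tied to the testicans were mostly higher in mCAF-like wells. Of 9 listed, 8 were tested, and 6 were higher and 1 lower in mCAF-like wells (median 1.37, beside -0.05). The gelatinase gene *Mmp2* was at 3.45, the membrane-type protease gene *Mmp16* at 3.00 and *Mmp15* at -2.04. In vCAF-like wells 6 were lower (median -0.91, beside 0.03), among them *Mmp16* (-5.46), *Mmp2* (-3.06) and the inhibitor gene *Timp2* (-0.95). In cCAF-like wells 4 were lower (median -1.04, beside -0.05), with *Mmp16* at -7.50 (read in only 2.44% of these wells), *Mmp2* at -2.45 and the cathepsin gene *Ctsl* at -1.92. In dCAF-like wells *Mmp16* was higher (2.67, median of the list 0.37, beside -0.07). *Mmp2* was among the clustering genes.

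Of 14 other genes with follistatin or Kazal domains, 9 were tested. In mCAF-like wells 4 were higher (median 1.09, beside -0.05), led by *Tmeff1* (3.21), the activin binder gene *Fst* (3.21) and the serine protease gene *Htra3* (3.04). In vCAF-like wells 1 was higher and 3 lower (median -1.90, beside 0.03), and the 3 were *Reck* (-2.31), *Htra3* (-2.28) and *Kazald1* (-1.90). In cCAF-like wells *Htra3* (-2.96) and *Fst*, read in 0 of 41 wells, were lower (median -1.23, beside -0.05). Setting genes without a read in a population at their 3-count bound changed the median of no list. *Kazald1* was higher in dCAF-like wells (3.93, median 0.85, beside -0.07). With the tumor as a block, *Kazald1* passed in neither vCAF-like (adjusted p = 0.0636 by edgeR) nor dCAF-like wells (0.0696), *Mmp16* passed in neither cCAF-like (0.0824) nor dCAF-like wells (0.0882), *Mmp15* no longer passed in mCAF-like wells (0.0581) and *Fst* no longer in cCAF-like wells (0.0517). *Htra3* and *Thbs1* were the only clustering genes in this list and in that of the further SPARC partners.

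The 10 wells inside the dCAF-like cluster had higher mean levels of *Sparc* and *Fstl1* than its other 29 wells in both tumors. Their *Sparc* level was 12.62 in the 1 well of tumor 1 and 11.16 in tumor 2, against 10.42 and 8.88 in the other dCAF-like wells, and *Fstl1* was at 9.56 and 9.17 against 5.80 and 6.30 (all as mean log2(RPKM + 1)). *Sparcl1* was at 9.53 and 8.30 against 8.77 and 8.25. The summed mCAF markers in the 10 wells were at 5735 and 8035 CPM, against 4191 and 2212 CPM in the other dCAF-like wells and 17799 to 19716 CPM in mCAF-like wells. *Smoc2*, in contrast, was low in them, at 0 and 0.53. With the 10 wells left out, *Fstl1* (-1.74, edgeR adjusted p = 0.0450) and *Smoc2* (-4.83, edgeR adjusted p = 0.0425) passed as lower in dCAF-like wells. Since these wells were picked from the cluster map after it was seen, the values are a description.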

How the data were processed

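Single cells of 2 tumors were sequenced by Smart-seq2 with ERCC spike-ins, and every well was assigned to a tumor by the plate in its label. The authors deposited read counts per RefSeq gene, aligned to mm10 with STAR and not normalized, and RPKM values, which the authors made from these counts per kilobase and scaled to all reads of a well, spike-ins included. The members, the gene lists and the tests were chosen with earlier results of these data known.

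Wells with at least 10000 endogenous reads were kept. Populations were built on log2(RPKM + 1) of the 500 most variable genes, the 8 members left out, by t-SNE with Rtsne 0.17 (perplexity 27, theta 0.5, 30 components at the start, best of 50 seeds) and DBSCAN (scikit-learn 1.9.0, minimum of 5 points, eps 2.5), with eps and names set by marker lists taken from the study. Counts were summed per tumor, and genes whose mean RPKM reached 1 were tested with edgeR 4.0.16 (TMM, quasi-likelihood, no covariate) on R 4.3.3, after a test on simulated data. The 2 sums of a tumor share an animal and are paired by design, and their deviations from the group means had an r of 0.158, 0.148, 0.0801 and 0.0830 in the vCAF-like, mCAF-like, cCAF-like and dCAF-like comparisons. The tumor as a block was an alternative, as were DESeq2 1.42.0, ERCC scaling, other filters on genes, wells and doublets, thinning to 50000 reads and other clusterings. Scrublet's method (scanpy 1.11.5) marked 6 wells as doublets, which were kept.

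All 8 members were named, from each list up to 3 called genes with the largest difference in a comparison, and for each member read in at least 5% of wells the 3 genes with the highest r. *Col8a1*, *Thbs1* and the genes whose call the block changed were named after their values were seen, as were the genes most alike within 1 population. Of the 8 members, 5 had an entry in the promoter table. Each well is 1 sample of the deposit, and 2 tumors with 1 plate each limit every p-value to the spread between these tumors.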

Additional observations from a re-analysis of the deposited data

Results flagged for a closer look

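The 41 wells with fewer than 10000 reads outside the spike-ins entered no comparison, yet reads of 5 members appeared in them, above the 3 counts that an absent gene allows. They held 100255 reads in all, of which 499 were of *Sparc*, found in 35 of the 41 wells, and 117 of *Sparcl1*, found in 33. *Fstl1* had 52 reads in 25 wells and *Smoc2* had 26 reads in 6 wells. The 28 reads of *Smoc1* came from 1 well. In CPM, *Sparc* was at 4977 in these wells against 11358 in the wells with more reads, *Sparcl1* at 1167 against 6123, *Fstl1* at 519 against 2279 and *Smoc2* at 259 against 629. *Spock1*, *Spock2* and *Spock3* had 0 reads. These wells were not assigned to a population.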

How the results depend on the processing

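Of 342 alternative values with a test for the members' log2 differences, leaving out 18 that rest on the same libraries as the main value, 283 kept their direction and their side of the threshold, 37 kept the direction and newly passed, 17 kept it and no longer passed, and 5 reversed. *Smoc2* in vCAF-like wells was at 0.15 with 8 libraries (each population against the mean of the other 3), *Smoc1* in mCAF-like wells at 1.08 with the members among the clustering genes, *Sparc* in cCAF-like wells at 0.10 with ERCC scaling, and *Sparcl1* in cCAF-like wells at 0.26 with ERCC scaling and 0.92 with 8 libraries, where it passed as higher (edgeR adjusted p = 0.0420). With the members among the clustering genes, *Smoc1* in dCAF-like wells was at 4.88 and did not pass. With 8 libraries, *Fstl1* (-0.17), *Spock1* (-0.85) and *Smoc1* (-2.37) in vCAF-like and *Smoc1* (-2.48) in mCAF-like wells no longer passed. For *Spock1* and *Smoc1* the mean of the other populations includes libraries with 0 reads of the gene, so it cannot decide. The causes were not tested.

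Main counts of called genes were 1498 in vCAF-like, 1888 in mCAF-like, 482 in cCAF-like and 442 in dCAF-like wells. In that order they were 5410, 4472, 1263 and 303 with ERCC scaling, 2470, 2878, 1713 and 2012 with DESeq2, 380, 1018, 1361 and 1560 with 8 libraries, and 18, 80, 0 and 0 at an adjusted p of at most 0.001 by edgeR. At 0.001, DESeq2 called 835 genes in cCAF-like and 1064 in dCAF-like wells, and 2554 and 2563 genes had an unadjusted edgeR p under 0.05. With 1000 clustering genes 744 genes were called in cCAF-like wells. In dCAF-like wells 664 were called after thinning, 700 with the 10 wells counted as unnamed and 733 with them left out of every library, both chosen after seeing the data.

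With the tumor as a replicate block, 1761, 2349, 423 and 204 genes were called. The block added calls of *Sparc* and *Smoc2* in vCAF-like, *Smoc1* and *Smoc2* in cCAF-like and *Smoc2* in dCAF-like wells, and changed no other call of a member. With 1 tumor left out no spread between tumors remains for a test. The log2 difference of every tested member kept its sign in each comparison (48 of 48 values), and *Spock2* and *Spock3* were not among them. The 10 dCAF-like wells of tumor 1 and the absence of molecular identifiers limit what low counts can show, and shares of wells for *Spock2* and *Spock3* rest on few reads.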
